A study of Mus musculus with 6 samples.

Results

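The 46 genes described here encode the machinery that copies chromosomal DNA: the origin licensing factors, the MCM2-7 helicase and the proteins that activate it, the polymerases and primase, the sliding clamp with its loader and the single-strand binding protein RPA, the enzymes that join Okazaki fragments, the enzymes that supply deoxynucleotides, the factors that duplicate chromatin behind the fork, and the transcription factors E2f1 and E2f2. They were listed by name, and the values of the genes are no part of the rule. This list and the further gene lists below were, however, chosen with earlier results of these data known. All 46 were found by Ensembl identifier among the 57132 genes of the count table, and all 46 were among the 16263 genes that passed the filter on low counts, with 53 to 6645 counts per gene and sample.

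Before a chromosome can be copied, the origin recognition complex, Cdc6 and Cdt1 load the MCM helicase onto DNA while the cell is still in G1. On entry into S phase the loaded helicase is switched on by Mcm10, Cdc45 and the GINS complex, and polymerases alpha, delta and epsilon then copy the strands with the clamp PCNA. Many of these genes are transcribed under E2F factors, which the retinoblastoma (RB) family holds in check in resting cells, and the podocyte of the adult glomerulus is a post-mitotic cell that rarely enters this programme.

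RNA from immortalized mouse podocytes was sequenced in 2 groups of 3 samples each: WT (cell line IMWT, genotype Col4a3+/+) and AS (Alport Syndrome, cell line IMAS, genotype Col4a3-/-). The mice of origin were male and 8 weeks old, and no treatment was given to either line. Cells grew at 33 °C with 10% serum and 20 U/mL interferon gamma, and were then differentiated at 37 °C for 14 days per the labels; the methods of the study give another duration and interferon dose, so the exact culture is uncertain. The cells of both groups carry the H-2Kb-tsA58 transgene, a thermosensitive SV40 large T antigen that drives growth at the lower temperature and binds RB proteins. With 1 cell line for each genotype, genotype and line cannot be told apart. The samples are called sets in the labels, which do not say whether they were separate cultures, and the p-values therefore measure only the spread between these samples, which may be technical.

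Total counts were 45417221 to 54290968 per sample. Col4a3, the deleted gene, had 938, 1052 and 1272 CPM (counts scaled to a common library size) in WT and 62.4, 61.2 and 82.9 CPM in AS. Reads of the gene were still counted in AS, with a log2 fold change of -3.98 (edgeR adjusted p = 1.31e-07). Of 12 podocyte markers, 9 passed the filter, while Tcf21 had 0 counts in every sample and Ptpro had 6 counts in WT and 0 in AS. Synpo, an actin-associated protein of podocyte foot processes, was high in both lines (803 ± 44.2 CPM in WT and 526 ± 30.8 CPM in AS, mean ± SD, n = 3). Nphs1, which encodes nephrin of the slit diaphragm, was near 0 (0.466 ± 0.00969 and 0.0407 ± 0.039 CPM). The lines therefore lack several defining markers of the podocyte. Summed markers of other renal cells were 0.907 to 1.75 CPM in WT and 0.311 to 0.739 CPM in AS for 6 endothelial genes, and 252 to 279 CPM and 133 to 137 CPM for 6 mesangial and pericyte genes. The sums were 643 to 672 CPM and 503 to 533 CPM for 6 parietal epithelial genes, 377 to 424 CPM and 281 to 392 CPM for 6 proximal tubule genes, and 23.1 to 28.1 CPM and 30.6 to 36.2 CPM for 6 macrophage and leukocyte genes. Within 2 of these lists the members moved apart, by edgeR adjusted p under 0.05. Of 5 mesangial and pericyte genes tested, Pdgfrb was lower in AS (253 CPM in WT and 116 CPM in AS on average). Rgs5 was higher (3.27 and 9.99 CPM), and 3 did not pass. Of 4 macrophage and leukocyte genes tested, Csf1r was lower (10.3 and 3.82 CPM), Cd14 was higher (13.5 and 26.7 CPM) and 2 did not pass. The part of these cell types in the results below was not tested.

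WT set 3 stood apart from the other WT samples for the replication genes. It was the lowest WT sample in 42 of 46 members (91.3%), whereas it was the lowest in 30.9% of all genes tested, against 38.8% for WT set 1 and 30.2% for WT set 2. In the 22 members that were lower in AS (below), WT set 3 was at a median of 0.789 times the mean of WT sets 1 and 2, and the AS mean was at 0.589 times that mean. The AS mean was at a median of 0.775 times WT set 3 in these genes, which were selected as lower in AS. Over all 46 members the AS mean lay below WT set 3 in 25. Results are therefore given with and without this sample where it changed a call.

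Replication genes were on balance lower in AS podocytes. By edgeR's quasi-likelihood test with a threshold of 0.05 on the adjusted p, 22 of 46 (47.8%) were lower in AS and 3 (6.52%) were higher, namely Mcm7, Rfc1 and Pold1, and 21 did not pass. Over all genes tested, 40.1% passed, 19.6% being lower and 20.4% higher in AS. The median log2 fold change of the 46 genes was -0.33, with a range of -1.21 to 0.52 and 33 values below 0, against a median of 0.01 over all genes tested. In 21 members the AS values were all under the WT values and in 4 they were all above, whereas 26% and 26.4% of all genes tested separated in these directions. In RNA from bulk cultures, fewer cells of a kind and less RNA per cell cannot be told apart. Without WT set 3 the lower count was 25 and the higher count 1 (Pold1). Leaving out any other sample gave 15 to 20 lower members, with 15 without AS set 2, and the higher count was 1 without AS set 2 and 0 without AS set 3, where 2 members were higher at an unadjusted p under 0.05.

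**Figure D1:**
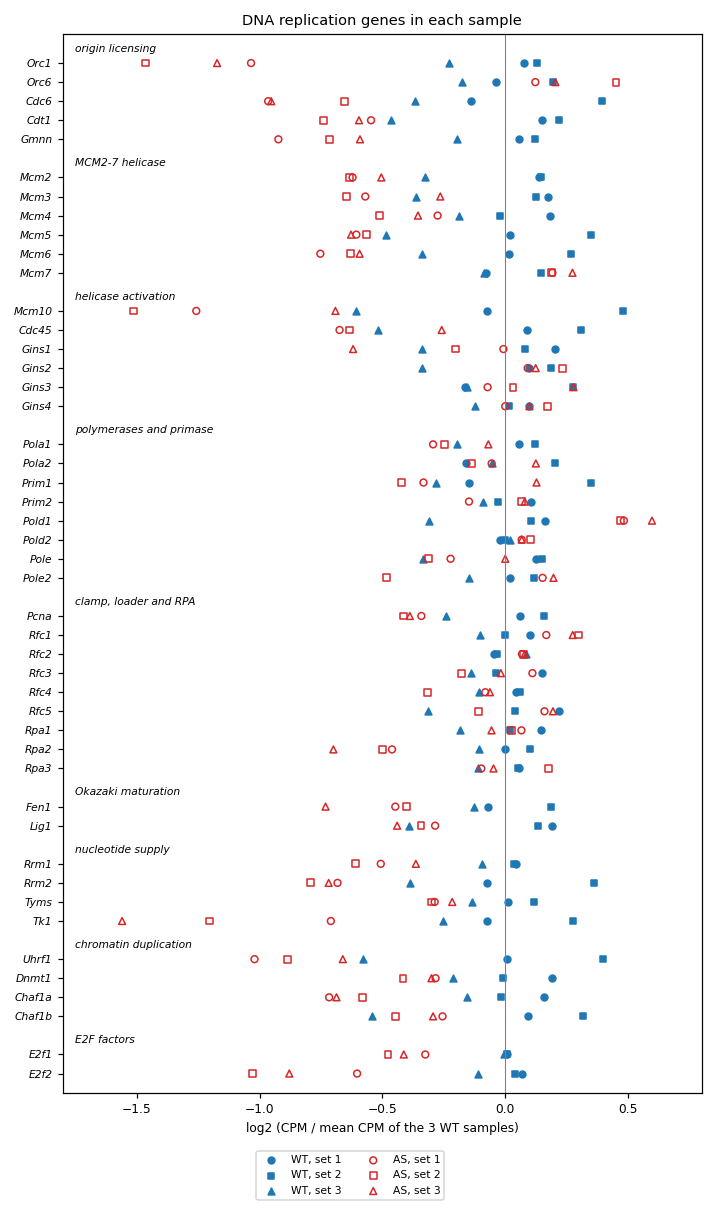
Level of each of the 46 replication genes in each sample, on the horizontal axis as log2 of CPM over the mean CPM of the 3 WT samples, with genes grouped by role on the vertical axis; filled blue symbols are WT and open red symbols AS, with the symbol shape giving the set. Among the genes of origin licensing, the helicase and nucleotide supply, the AS symbols lie to the left of WT except for Orc6 and Mcm7 and 1 AS sample of Mcm3, and WT set 3 (filled triangles) is the WT sample farthest to the left in 42 of 46 genes.

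By step of replication, a lower level in AS was seen in 4 of 5 origin licensing genes (median log2 fold change -0.73), 5 of 6 subunits of the MCM2-7 helicase (-0.53), 4 of 4 nucleotide supply genes (-0.61), 3 of 4 chromatin duplication genes (-0.50) and both E2F factors (-0.62). It was seen in 1 of 6 genes of helicase activation (median -0.09), 0 of 8 genes of polymerases and primase (-0.02), 2 of 9 genes of the clamp, its loader and RPA (0.01) and 1 of 2 genes of Okazaki fragment maturation (-0.44). The share of all genes tested that were lower was 19.6%, which is near that of the genes of helicase activation (16.7%) and of the clamp, loader and RPA (22.2%). Differences between these small groups were not tested.

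**Figure D2:**
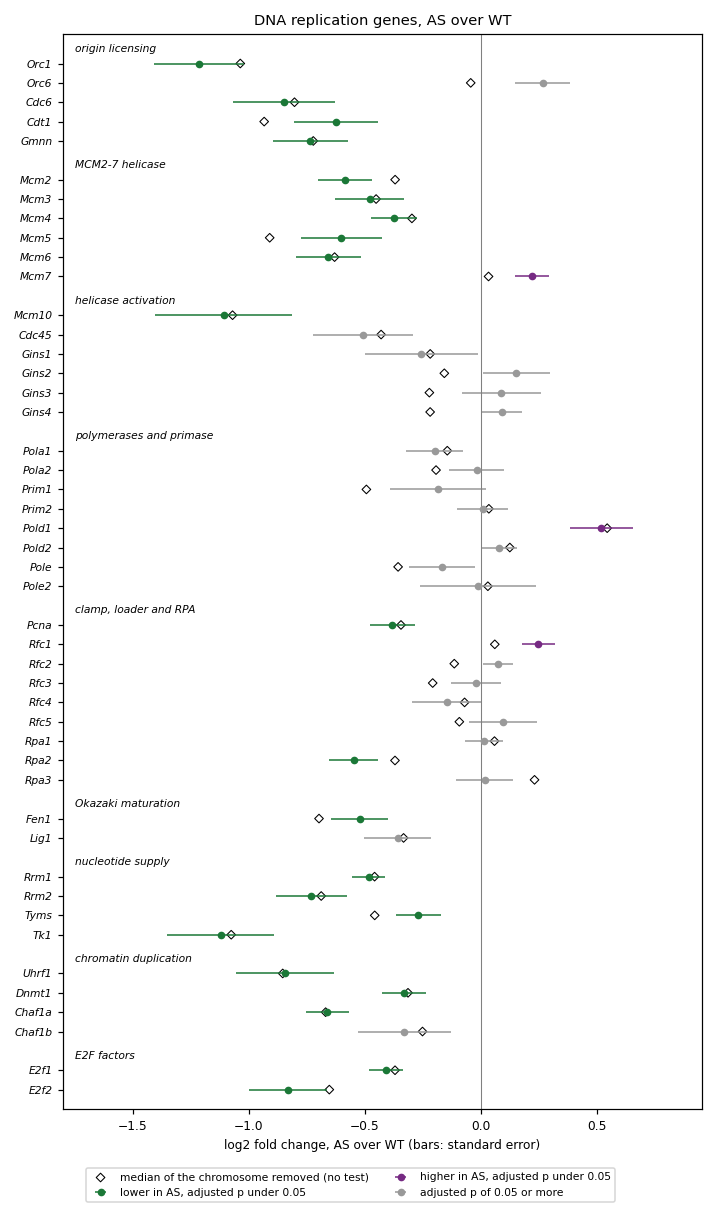
Log2 fold change of each replication gene, AS over WT, with bars of 1 standard error on the horizontal axis and genes grouped by role on the vertical axis; green points were lower and purple points higher in AS at an adjusted p under 0.05, grey points did not pass, and open diamonds give the value after the median of the gene's chromosome was subtracted. The green points lie between -1.21 and -0.27, and the purple points are Mcm7 (0.22), Rfc1 (0.25) and Pold1 (0.52), of which the diamonds of Mcm7 and Rfc1 sit at 0.03 and 0.06.

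The promoters of the licensing factors and helicase subunits, of the clamp gene Pcna and of Pold1, the gene with the largest rise, are shown because many of these genes are known E2F targets and because they did not all change in the same direction. Sequences are from RefSeq on GRCm38.p6 and run 5′ to 3′ on the strand of the gene, from 250 bases before the start to 30 bases after it. Capitals mark matches to an E2F consensus, searched on both strands as TTTCCCGC, TTTGGCGC, TTTGCCGC or TTTCGCGC.
Orc1, chr4:108579204-108579483, plus strand: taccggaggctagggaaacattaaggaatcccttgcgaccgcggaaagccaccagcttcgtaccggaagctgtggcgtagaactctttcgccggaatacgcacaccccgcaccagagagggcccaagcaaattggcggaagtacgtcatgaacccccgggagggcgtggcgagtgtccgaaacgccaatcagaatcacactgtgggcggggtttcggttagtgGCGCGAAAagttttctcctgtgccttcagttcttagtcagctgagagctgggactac
Orc6, chr8:85299382-85299661, plus strand: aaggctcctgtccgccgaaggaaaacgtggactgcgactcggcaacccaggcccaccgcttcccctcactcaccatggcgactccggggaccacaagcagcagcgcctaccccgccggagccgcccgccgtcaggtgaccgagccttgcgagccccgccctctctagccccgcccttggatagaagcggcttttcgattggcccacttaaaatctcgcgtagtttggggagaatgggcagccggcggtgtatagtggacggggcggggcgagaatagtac
Cdc6, chr11:98907901-98908180, plus strand: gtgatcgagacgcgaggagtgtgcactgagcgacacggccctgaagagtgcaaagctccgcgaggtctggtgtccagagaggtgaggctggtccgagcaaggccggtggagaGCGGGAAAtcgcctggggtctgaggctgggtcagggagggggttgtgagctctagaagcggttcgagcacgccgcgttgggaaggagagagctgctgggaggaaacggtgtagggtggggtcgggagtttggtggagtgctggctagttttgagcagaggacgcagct
Cdt1, chr8:122567765-122568044, plus strand: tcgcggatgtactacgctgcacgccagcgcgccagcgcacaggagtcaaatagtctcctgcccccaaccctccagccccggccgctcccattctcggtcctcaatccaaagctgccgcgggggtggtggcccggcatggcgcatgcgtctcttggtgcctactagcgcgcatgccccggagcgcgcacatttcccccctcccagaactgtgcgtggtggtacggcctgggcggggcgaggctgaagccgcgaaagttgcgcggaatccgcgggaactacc
Mcm2, chr6:88898751-88899030, minus strand: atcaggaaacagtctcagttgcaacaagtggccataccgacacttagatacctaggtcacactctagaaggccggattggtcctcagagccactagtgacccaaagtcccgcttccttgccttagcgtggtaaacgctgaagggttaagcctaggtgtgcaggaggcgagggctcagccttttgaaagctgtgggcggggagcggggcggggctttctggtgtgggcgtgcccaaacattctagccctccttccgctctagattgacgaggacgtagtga
Mcm3, chr1:20820283-20820562, minus strand: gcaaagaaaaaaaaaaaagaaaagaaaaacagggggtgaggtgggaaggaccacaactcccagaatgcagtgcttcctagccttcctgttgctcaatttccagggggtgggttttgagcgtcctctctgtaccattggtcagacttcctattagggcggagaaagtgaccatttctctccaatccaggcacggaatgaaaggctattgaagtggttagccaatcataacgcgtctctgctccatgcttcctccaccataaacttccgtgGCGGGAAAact
Mcm5, chr8:75109259-75109538, plus strand: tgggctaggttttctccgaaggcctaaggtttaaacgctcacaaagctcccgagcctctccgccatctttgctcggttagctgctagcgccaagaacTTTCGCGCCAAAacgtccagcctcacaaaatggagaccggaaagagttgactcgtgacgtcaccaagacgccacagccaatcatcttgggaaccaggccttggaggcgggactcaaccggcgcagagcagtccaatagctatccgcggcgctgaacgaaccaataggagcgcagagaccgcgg
Mcm6, chr1:128359676-128359955, minus strand: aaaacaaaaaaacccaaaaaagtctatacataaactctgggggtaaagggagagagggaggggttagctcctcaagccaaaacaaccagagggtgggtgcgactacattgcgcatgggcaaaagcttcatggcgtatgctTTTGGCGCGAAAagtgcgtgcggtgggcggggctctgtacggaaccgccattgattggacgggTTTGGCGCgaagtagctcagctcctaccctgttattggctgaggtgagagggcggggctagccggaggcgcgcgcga
Mcm7, chr5:138171854-138172133, minus strand: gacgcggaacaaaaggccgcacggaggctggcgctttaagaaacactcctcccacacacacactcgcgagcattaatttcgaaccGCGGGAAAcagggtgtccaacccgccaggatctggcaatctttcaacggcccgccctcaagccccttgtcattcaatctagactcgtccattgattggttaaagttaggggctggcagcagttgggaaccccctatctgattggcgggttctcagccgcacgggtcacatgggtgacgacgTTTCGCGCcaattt
Pold1, chr7:44548786-44549065, minus strand: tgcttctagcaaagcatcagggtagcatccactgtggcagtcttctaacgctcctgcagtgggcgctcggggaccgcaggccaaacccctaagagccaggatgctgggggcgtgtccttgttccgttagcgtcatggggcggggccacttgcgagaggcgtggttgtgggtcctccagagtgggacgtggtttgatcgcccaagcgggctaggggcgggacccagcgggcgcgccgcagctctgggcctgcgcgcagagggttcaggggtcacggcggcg
Pcna, chr2:132253151-132253430, minus strand: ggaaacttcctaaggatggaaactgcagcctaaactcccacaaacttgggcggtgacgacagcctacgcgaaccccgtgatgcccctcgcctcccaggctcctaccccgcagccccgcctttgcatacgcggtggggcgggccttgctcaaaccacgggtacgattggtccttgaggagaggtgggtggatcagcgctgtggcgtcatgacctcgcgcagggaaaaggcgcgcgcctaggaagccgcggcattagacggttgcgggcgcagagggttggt

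Orc1, which had the largest decrease of all members, held GCGCGAAA 27 bases before the start, and Cdc6 held GCGGGAAA 138 bases before it. Mcm6 held TTTGGCGC 110 bases and again 47 bases before the start, and the match at 110 overlapped an opposite match, GCGCGAAA, at 106. Mcm5 held a like pair of overlapping matches, TTTCGCGC at 153 and GCGCCAAA at 149 bases before the start. Mcm7, which was higher in AS, held GCGGGAAA 165 bases before the start and TTTCGCGC 16 bases after it. The last base of the latter match is shared with a CCAAT box. Another promoter of Mcm7, which is not printed, held no E2F match. Mcm3 held GCGGGAAA 19 bases after the start, and the further matches of Mcm3, Cdt1 and Pold1, at 38, 32 and 39 bases after it, lie beyond the printed stretch. The windows of Orc6, Mcm2 and Pcna held no match to these letters.

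A promoter of 250 bases before to 50 after the start was found for 38 of the 46 genes, and the others are Gmnn, Mcm4, Gins1, Gins2, Gins4, Prim2, Pole and Rfc2. Of these 38 genes, 16 (42.1%) held an E2F match, compared with 500 of 11111 genes tested (4.5%). Counted by promoter, 34% of member promoters held a match, against 3.7% of the promoters of genes tested and 2.26% of all 32851 promoters. The match was found in members of both directions. It was present in 2 of the 3 members that were higher in AS, Mcm7 and Pold1, and of the 16 with a match 9 were lower in AS (median log2 fold change -0.42), against 11 of 22 without (median -0.36). Over all genes tested with a promoter, 18% with a match and 21% without were lower in AS. The letters CCAAT, bound by NF-Y, were present in 25 members and in 61.7% of member promoters, against 37.4% of all promoters and of those of genes tested. The cell cycle homology letters TTTGAA or TTCGAA were present in 9 members and in 19.1% of member promoters, against 19.2% of all promoters and 13.9% of the promoters of genes tested. Such matches are letters in a window and do not show binding.

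Among the origin licensing genes, Orc1, an ATP-binding subunit of the origin recognition complex, fell most. Its level was 4.02, 4.17 and 3.25 CPM in WT and 1.86, 1.38 and 1.69 CPM in AS. The AS values were all under the WT values, and the log2 fold change was -1.21 ± 0.19 (SE, edgeR adjusted p = 0.000962). Of the exon bases of Orc1, 10.8% lie opposite the gene Gm12743, and the strand setting of the counting is not given in the sources used here, so its reads are to that extent uncertain. Orc6, another subunit of the same complex, had 15.4, 18.1 and 14.0 CPM in WT and 17.2, 21.6 and 18.2 CPM in AS. These groups overlapped, and the log2 fold change of 0.26 ± 0.12 did not pass (edgeR adjusted p = 0.108). Orc6 did pass, as higher in AS, with the set number as a block (edgeR adjusted p = 0.0269) and without WT set 2 (log2 fold change 0.37, edgeR adjusted p = 0.0459). Per kb of transcript, Orc1 was at 0.127, 0.112 and 0.113 times the level of Orc6 in WT and at 0.0529, 0.0311 and 0.0451 times in AS.

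Cdc6 and Cdt1, which bring the helicase to the origin, were both lower in AS. Cdc6 had 4.06, 5.88 and 3.47 CPM in WT against 2.29, 2.84 and 2.31 CPM in AS, a log2 fold change of -0.85 ± 0.22 (edgeR adjusted p = 0.0126). Cdt1 had 8.74, 9.17 and 5.70 CPM in WT against 5.39, 4.71 and 5.21 CPM in AS, a log2 fold change of -0.62 ± 0.18 (edgeR adjusted p = 0.0219). WT set 3 was the lowest WT sample for both and, for Cdt1, came close to the highest AS sample. Gmnn encodes geminin, which binds Cdt1 and blocks renewed licensing. It fell as well, from 4.95, 5.17 and 4.16 CPM in WT to 2.51, 2.90 and 3.16 CPM in AS, and the log2 fold change was -0.73 ± 0.16 (edgeR adjusted p = 0.00586). The ratio of Cdt1 to Gmnn per kb was 0.909, 0.913 and 0.705 in WT and 1.11, 0.836 and 0.849 in AS, so that the groups overlapped. The call of Cdc6 was lost without AS set 3 (edgeR adjusted p = 0.0511), and that of Cdt1 without WT set 2, AS set 2 or AS set 3 (largest edgeR adjusted p = 0.0814).

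The MCM2-7 helicase is a ring of 6 different subunits, of which 5 were lower in AS and 1 was higher. Mcm2 had 64.1, 64.4 and 46.5 CPM in WT and 37.9, 37.6 and 41.1 CPM in AS. Mcm6 had 18.9, 22.5 and 14.8 CPM in WT and 11.1, 12.1 and 12.4 CPM in AS. For both genes the AS values were all under the WT values, with WT set 3 nearest to AS, and the log2 fold changes were -0.59 ± 0.12 (edgeR adjusted p = 0.00335) and -0.66 ± 0.14 (edgeR adjusted p = 0.00503). Mcm4 had 58.7, 51.0 and 45.5 CPM in WT and 42.8, 36.3 and 40.5 CPM in AS, and Mcm5 had 21, 26.4 and 14.8 CPM in WT and 13.6, 14.0 and 13.4 CPM in AS. Their groups did not overlap, although the gap between WT set 3 and the highest AS sample was small, and the log2 fold changes were -0.38 ± 0.10 (edgeR adjusted p = 0.0136) and -0.60 ± 0.17 (edgeR adjusted p = 0.0212). Mcm3 had 26.3, 25.4 and 18.1 CPM in WT and 15.7, 14.9 and 19.4 CPM in AS. It was the only member among the 22 lower ones in which the groups overlapped, AS set 3 lying above WT set 3, and the log2 fold change was -0.48 ± 0.15 (edgeR adjusted p = 0.0286).

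The calls of Mcm2 and Mcm6 were kept in all 13 alternative fits, which changed the normalization, the test or the filter, added the set number as a block or left out each sample in turn. Mcm4 did not pass without AS set 2 (edgeR adjusted p = 0.0533). Mcm5 did not pass without WT set 2 or any 1 of the AS samples (largest edgeR adjusted p = 0.0734), and Mcm3 did not pass without WT set 1, WT set 2, AS set 1 or AS set 2 (largest edgeR adjusted p = 0.0925).

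Mcm7 moved in the opposite direction to its partners. It had 51.3, 59.9 and 51.0 CPM in WT and 61.8, 61.6 and 65.4 CPM in AS. Every AS sample lay above every WT sample, although WT set 2 came close, and the log2 fold change was 0.22 ± 0.07 (edgeR adjusted p = 0.0388). Per kb of transcript, Mcm7 was at 1.59, 1.85 and 2.14 times the mean of the other subunits in WT and at 2.99, 3.14 and 3.01 times in AS. It was the highest subunit in every AS sample, at 20.8 to 22.1 CPM per kb. It was also the highest in WT sets 2 and 3, at 20.2 and 17.2 CPM per kb. In WT set 1 Mcm2 was higher, at 19.0 CPM per kb. Mcm6 was the lowest subunit in every sample, at 3.39 to 5.17 CPM per kb in WT and 2.56 to 2.84 in AS. Of the bases annotated as exons of Mcm7, 12.6% overlap the microRNA genes Mir25 and Mir93 or the opposite genes Cops6 and Ap4m1. The call was lost without WT set 1, WT set 3 or any 1 of the AS samples (largest edgeR adjusted p = 0.133). After the median of its chromosome was subtracted, the log2 fold change of Mcm7 was 0.03.

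**Figure D3:**
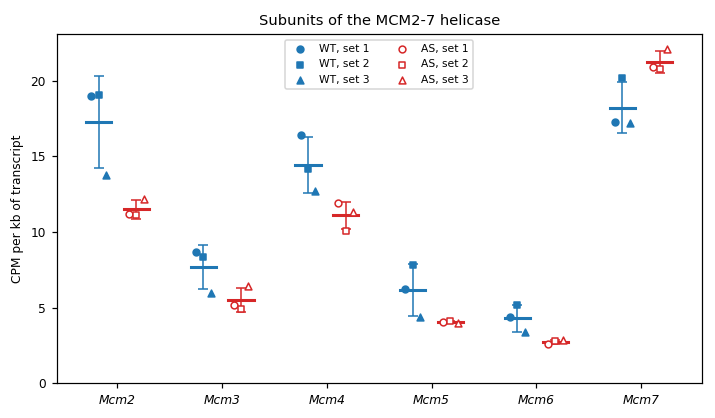
Level of the 6 subunits of the MCM2-7 helicase in CPM per kb of transcript (vertical axis, from 0) for WT (filled blue) and AS (open red) samples, with horizontal bars for the mean and whiskers for 1 SD of the 3 samples. Mcm2 to Mcm6 are lower in AS, most clearly Mcm2 (17.3 against 11.5 on average), and Mcm7 is higher (18.3 against 21.3).

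Genes that switch on the loaded helicase were mostly not separated. Mcm10, which is needed to fire the assembled helicase, had 5.29, 7.76 and 3.66 CPM in WT and 2.33, 1.95 and 3.45 CPM in AS. AS set 3 lay just below WT set 3, and the log2 fold change was -1.11 ± 0.29 (edgeR adjusted p = 0.0145), which was lost without WT set 2 or AS set 2 (largest edgeR adjusted p = 0.0546). Cdc45, which joins the MCM ring and the GINS complex into the active helicase, had 7.26, 8.46 and 4.77 CPM in WT and 4.28, 4.40 and 5.71 CPM in AS. The groups overlapped through the samples of set 3, and the log2 fold change of -0.51 ± 0.21 did not pass (edgeR adjusted p = 0.088) but did without WT set 3 (log2 fold change -0.71, edgeR adjusted p = 0.0134), with DESeq2 and with no filter on low counts. The 4 GINS genes overlapped between groups, with log2 fold changes of -0.26 (Gins1), 0.15 (Gins2), 0.09 (Gins3) and 0.09 (Gins4). Of the exon bases of Gins2, 67.3% lie opposite Gse1.

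Of the polymerase and primase genes, 7 of 8 did not pass. Pold1, the catalytic subunit of polymerase delta, was the exception and the member with the largest rise. It had 8.72, 8.40 and 6.29 CPM in WT and 10.9, 10.8 and 11.8 CPM in AS. Every AS sample lay above every WT sample, and the log2 fold change was 0.52 ± 0.14 (edgeR adjusted p = 0.0138). The call held without WT set 3 (log2 fold change 0.38, edgeR adjusted p = 0.0328) but not without AS set 3 (edgeR adjusted p = 0.0573). Its partner Pold2 had 14.5, 14.7 and 14.9 CPM in WT and 15.4, 15.8 and 15.4 CPM in AS. These groups did not overlap, yet the log2 fold change of 0.08 ± 0.08 did not pass (edgeR adjusted p = 0.458). The ratio of Pold1 to Pold2 per kb was 0.286, 0.271 and 0.201 in WT and 0.337, 0.325 and 0.366 in AS.

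Polymerase alpha and its primase, which lay down the RNA-DNA primers, had log2 fold changes of -0.20 (Pola1), -0.02 (Pola2), -0.19 (Prim1) and 0.01 (Prim2). Polymerase epsilon, which copies the leading strand, had log2 fold changes of -0.17 (Pole) and -0.01 (Pole2). In all 6 genes the groups overlapped. None of the 8 genes was lower at an unadjusted p under 0.05 either by edgeR, limma-voom or DESeq2 (0 of 8 each), while without WT set 3 the count was 2 of 8 unadjusted and 0 adjusted. Standard errors in these 6 genes ran from 0.1088 (Prim2) to 0.2505 (Pole2) on the log2 scale, so a small change in them was not detectable. Without both samples of set 3, an alternative chosen after seeing the data, 1 of the 8, Pole, was lower.

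Pcna, the sliding clamp that holds polymerases on DNA, had 37.1, 39.7 and 30.1 CPM in WT and 28.1, 26.7 and 27.2 CPM in AS. All AS samples lay below WT set 3, the lowest WT sample, and the log2 fold change was -0.38 ± 0.10 (edgeR adjusted p = 0.0121). The call was kept in all 13 alternative fits. The annotated pseudogene Pcna-ps2 held 554 counts summed over the 3 WT samples and 510 over the 3 AS samples, while Pcna had 1265 to 1882 counts in each single sample, and reads shared by the pair could have been assigned to either. Rfc1, the large subunit of the clamp loader, had 41.9, 39.1 and 36.4 CPM in WT and 43.9, 48.1 and 47.3 CPM in AS. Its groups did not overlap, and the log2 fold change was 0.25 ± 0.07 (edgeR adjusted p = 0.0209). The call was lost without WT set 2, WT set 3, AS set 2 or AS set 3 (largest edgeR adjusted p = 0.0803). After the median of its chromosome was subtracted, the log2 fold change of Rfc1 was 0.06. The small loader subunits did not pass, with log2 fold changes of 0.07 (Rfc2), -0.02 (Rfc3), -0.15 (Rfc4) and 0.09 (Rfc5).

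The subunits of RPA, the trimer that coats single-stranded DNA, did not move together. Rpa2 had 13.9, 14.9 and 12.9 CPM in WT and 10.1, 9.84 and 8.56 CPM in AS. All 3 AS samples were lower than all 3 WT samples, and the log2 fold change was -0.55 ± 0.11 (edgeR adjusted p = 0.00294). Rpa1 (69.1 ± 2.93 CPM in AS and 68.5 ± 7.74 CPM in WT, mean ± SD, n = 3) and Rpa3 (7.44 ± 0.763 and 7.36 ± 0.482 CPM) had log2 fold changes of 0.01 each, and their groups overlapped.

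Of the enzymes that finish the lagging strand, Fen1, the flap nuclease, had 15.7, 18.8 and 15.1 CPM in WT and 12.1, 12.5 and 9.94 CPM in AS. The groups did not overlap, and the log2 fold change was -0.52 ± 0.12 (edgeR adjusted p = 0.00757). This value is uncertain, because 84.2% of the exon bases of Fen1 lie opposite Tmem258 or Gm10143. Lig1, the ligase that seals the fragments, had 17.8, 17.1 and 11.9 CPM in WT and 12.8, 12.3 and 11.5 CPM in AS. WT set 3 lay among the AS samples, and the log2 fold change of -0.36 ± 0.14 did not pass (edgeR adjusted p = 0.0752). Without WT set 3 it was -0.52 (edgeR adjusted p = 0.00442), and Lig1 also passed with the set number as a block (edgeR adjusted p = 0.0315), with DESeq2 and with no filter on low counts.

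All 4 genes of deoxynucleotide supply were lower in AS. Rrm1 and Rrm2 encode the large and the S-phase small subunit of ribonucleotide reductase, the enzyme that makes deoxynucleotides. Rrm1, the member with the highest level in CPM, had 131, 130 and 119 CPM in WT and 89.4, 83.3 and 98.7 CPM in AS. Rrm2 had 61.8, 83.5 and 49.7 CPM in WT and 40.5, 37.5 and 39.5 CPM in AS. All AS samples lay below all WT samples in both, with log2 fold changes of -0.48 ± 0.07 (edgeR adjusted p = 0.000673) and -0.73 ± 0.15 (edgeR adjusted p = 0.0046). The ratio of Rrm2 to Rrm1 per kb was 0.859, 1.17 and 0.762 in WT and 0.826, 0.82 and 0.73 in AS, with overlap between the groups.

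Tk1, the thymidine kinase of cycling cells, had 5.80, 7.39 and 5.12 CPM in WT and 3.73, 2.65 and 2.07 CPM in AS, and the AS mean was 0.46 times the WT mean (log2 fold change -1.12 ± 0.23, edgeR adjusted p = 0.00396). With Orc1 and Mcm10 it was among the 3 members that fell by more than a fold of 2. Tyms, thymidylate synthase, had 14.5, 15.6 and 13.1 CPM in WT and 11.8, 11.7 and 12.4 CPM in AS. Its groups did not overlap, but the decrease was the smallest among the called members (log2 fold change -0.27 ± 0.10, edgeR adjusted p = 0.0481). Its call held in 4 of 13 alternative fits and was lost when any sample except WT set 3 was left out (largest edgeR adjusted p = 0.164).

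Behind the fork, Chaf1a and Chaf1b encode the chromatin assembly factor that deposits new histones, and Uhrf1 and Dnmt1 restore DNA methylation on the new strand. Chaf1a had 26.2, 23.2 and 21.1 CPM in WT and 14.3, 15.7 and 14.6 CPM in AS. The gap between groups was wide against the spread within them, and the log2 fold change was -0.66 ± 0.09 (edgeR adjusted p = 0.000507), with 52.5% of its exon bases lying opposite Ubxn6. Chaf1b had 8.23, 9.61 and 5.29 CPM in WT and 6.46, 5.66 and 6.29 CPM in AS. WT set 3 was the lowest of all 6 samples, and the log2 fold change of -0.33 ± 0.20 did not pass (edgeR adjusted p = 0.222), while without that sample it was -0.54 (edgeR adjusted p = 0.0171).

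Uhrf1 had 18.6, 24.4 and 12.4 CPM in WT and 9.12, 10.0 and 11.7 CPM in AS, a log2 fold change of -0.85 ± 0.21 (edgeR adjusted p = 0.0107). Dnmt1 had 72.9, 63.5 and 55.2 CPM in WT and 52.5, 47.9 and 51.9 CPM in AS, a log2 fold change of -0.33 ± 0.10 (edgeR adjusted p = 0.0206). In both genes WT set 3 was the nearest WT sample to AS, and the groups did not overlap. The call of Dnmt1 was lost without AS set 2 or AS set 3 (largest edgeR adjusted p = 0.0727).

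The activator factors E2f1 and E2f2 were both lower in AS, and WT set 3 did not stand apart for E2f1. E2f1 had 21.4, 21.4 and 21.2 CPM in WT and 17.0, 15.3 and 16 CPM in AS (log2 fold change -0.41 ± 0.07, edgeR adjusted p = 0.00196). E2f2 had 4.67, 4.57 and 4.12 CPM in WT and 2.93, 2.18 and 2.42 CPM in AS (log2 fold change -0.83 ± 0.17, edgeR adjusted p = 0.00361). The groups were well separated for both, and both calls were kept in all 13 alternative fits.

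Fold changes also varied by chromosome in these lines. Among genes with a mean above 4 CPM, the difference of a chromosome's median log2 fold change from that of all genes was 0.31 on chromosome 8 (which carries 6 members), 0.31 on chromosome 10 (1 member), 0.19 on chromosome 5 (7 members), -0.18 on chromosome 4 (3 members) and -0.22 on chromosome 6 (2 members). Mcm7 and Rfc1 lie on chromosome 5 and were at 0.03 and 0.06 relative to its median, whereas Pold1, on chromosome 7, was at 0.54. Mcm5 and Cdt1, on chromosome 8, were at -0.91 and -0.93 relative to that chromosome. After the median of the chromosome was subtracted, the 46 members had a median of -0.34 and 38 lay below 0. The part of the chromosome in each change was not tested.

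Further genes of replication, taken from a list of 43, were lower in AS in 14 cases (32.6%) and higher in 5 (11.6%), with a median log2 fold change of -0.17. Of all genes tested, 19.6% were lower and 20.4% higher. Clspn, which links the fork to the checkpoint kinase, had 13.7, 14.8 and 9.30 CPM in WT and 5.04, 4.69 and 6 CPM in AS (log2 fold change -1.26, edgeR adjusted p = 0.000545). Top2a and Top1, the topoisomerases that relieve torsion, were also lower, with log2 fold changes of -0.76 and -0.25 (edgeR adjusted p = 0.00478 and 0.00498). Pold3, a further subunit of polymerase delta, rose from 8.74, 10.4 and 8.39 CPM to 14.7, 16 and 17.5 CPM (log2 fold change 0.81, edgeR adjusted p = 0.000486), the same direction as Pold1. Asf1a, a histone chaperone, rose from 13.8 ± 1.05 CPM to 18.5 ± 0.907 CPM (mean ± SD, n = 3; log2 fold change 0.43, edgeR adjusted p = 0.00399).

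Among regulators of E2F, RB and the entry into S phase, 32 of 33 listed genes were tested (Lin54 was not analysed here). In AS 13 were lower (40.6%) and 9 higher (28.1%), against 19.6% and 20.4% of all genes tested. Their median log2 fold change was -0.20. The E-type cyclins, which activate Cdk2 at the start of S phase, fell, Ccne2 from 9.33, 12.6 and 8.08 CPM to 3.91, 4.12 and 4.14 CPM (log2 fold change -1.30, edgeR adjusted p = 0.000309) and Ccne1 by 0.80 on the log2 scale (edgeR adjusted p = 0.000472). Cdk2 itself rose from 16.8, 19.9 and 15.1 CPM to 26.4, 25.6 and 29.1 CPM (log2 fold change 0.65, edgeR adjusted p = 0.00112). Of the D-type cyclins, Ccnd2 fell from 2844 ± 145 CPM to 2039 ± 52.3 CPM and Ccnd3 from 172 ± 4.16 CPM to 124 ± 2.84 CPM (mean ± SD, n = 3; log2 fold changes -0.48 and -0.47, edgeR adjusted p = 0.000566 and 0.000105). Foxm1, a transcription factor of mitotic genes, fell from 23.0, 29.0 and 22.9 CPM to 12.4, 12.3 and 12.7 CPM (log2 fold change -1.0, edgeR adjusted p = 7.13e-05).

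Genes of mitosis, the step that follows replication, were lower in AS as well. Of 20 such genes 17 (85%) were lower by edgeR's test and 0 were higher, against 19.6% and 20.4% of all genes tested. All 20 log2 fold changes lay below 0, with a median of -0.87. WT set 3 was the lowest WT sample in all 20. Tpx2, a spindle assembly factor, had 44.6, 46 and 40.7 CPM in WT and 24.3, 24.0 and 26.7 CPM in AS (log2 fold change -0.81, edgeR adjusted p = 3.56e-05). Ccnb1, the mitotic cyclin B, had 15.1, 14.5 and 9.84 CPM in WT and 6.33, 5.78 and 6.18 CPM in AS (log2 fold change -1.11, edgeR adjusted p = 0.000594). Cenpe, Bub1, Cdc20 and Kif20a, which act at the kinetochore, the spindle checkpoint and in cytokinesis, were lower by log2 fold changes of -1.01, -1.18, -0.91 and -1.0.

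The level of the lists in each sample shows how far WT set 3 lay from its group. Relative to the WT mean, the median log2 level of the 46 replication genes was 0.06, 0.12 and -0.19 in WT and -0.29, -0.42 and -0.28 in AS. For the mitosis genes it was 0.20, 0.22 and -0.52 in WT and -0.96, -0.93 and -0.78 in AS. WT set 3 thus lay between the other WT samples and the AS samples for both lists, whereas the median over all genes tested stayed within 0.01 of 0 in every sample. The regulators had 0.03, 0.01 and -0.06 in WT and -0.23, -0.18 and -0.22 in AS. The part of the share of dividing cells in each sample was not tested.

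**Figure D4:**
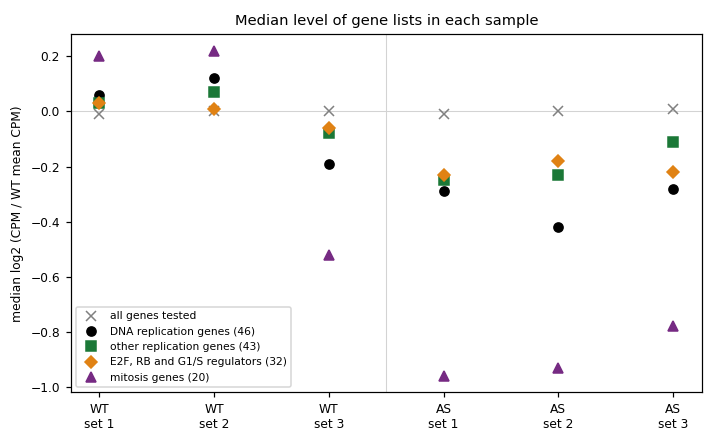
Median log2 of CPM over the WT mean CPM (vertical axis) in each of the 6 samples (horizontal axis) for the 46 replication genes, 43 further replication genes, 32 regulators of E2F, RB and the entry into S phase, 20 mitosis genes and all genes tested. The mitosis genes and the replication genes are lower in WT set 3 (-0.52 and -0.19) than in the other WT samples, and all 4 lists are lower in each AS sample than in each WT sample.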

How the data were processed

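Counts of reads per gene, which the authors deposited as whole numbers for 6 samples, were used as given. The submitters' processing notes name FastQC, Trim Galore, STAR, edgeR and the mm39 build, while for the counter, its annotation and its strand setting nothing is given in the sources used here. Of 57132 identifiers, 51880 matched GENCODE M21 without regard to version, and those that did not held 0.363% of counts. M21 is on GRCm38, so gene coordinates are not given. Genes were filtered with filterByExpr (minimum count 10, minimum total 15), scaled by TMM and tested for AS against WT without covariates with edgeR 4.0.16 (quasi-likelihood test, two-sided, R 4.3.3), with Benjamini-Hochberg adjustment over all genes tested and a threshold of 0.05. This replaced the limma-voom fit of the study, which was run as an alternative (limma 3.58.1), as was DESeq2 1.42.0. CPM values use TMM-scaled totals, and CPM per kb uses the longest coding transcript. Standard errors were derived from the F statistic (absolute log2 fold change over the root of F). The procedure was tested on simulated data. Other alternatives were RLE or plain library sizes, no filter, a mean of at least 1 CPM, a replicate block and each sample left out.

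Members and gene lists were chosen with earlier results of these data known. Members with an adjusted p under 0.05 or separate groups are given in full and the others by values or ranges, and of each further list up to 6 genes with the smallest adjusted p are named, with Col4a3; some genes of these lists are not reported here. With 3 samples against 3, an exact permutation test cannot go below 0.1, so ratios between genes are given without a test. The depth of 45417221 to 54290968 counts limits the precision of members with few counts, and PCR (15 cycles) without stated molecular identifiers means that reads are not independent molecules. No 2 samples of a genotype agreed within sampling noise (chi-square per degree of freedom 7.04 to 32.9).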

Additional observations from a re-analysis of the deposited data

How the results depend on the processing

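The count of replication genes lower in AS stayed within 21 to 24 under other normalizations, tests and filters, was 22 with the replicate block and ranged from 15 to 25 when each sample was left out. The count of higher genes was 3 under other normalizations, tests and filters, ranged from 0 to 3 when each sample was left out (1 without WT set 3, 1 without AS set 2, 0 without AS set 3), and was 0 without both samples of set 3, an alternative chosen after seeing the data, in which 1 was higher at an unadjusted p under 0.05 and 24 members were lower. The labels do not say whether same-numbered samples are pairs, and this was not tested. Deviations of same-numbered samples correlated at 0.147, 0.0939 and 0.0526, against -0.13 to 0.0571 for other numbers. With the replicate block, 4 members were higher (Orc6 in addition), 22 were lower, the median log2 fold change was -0.309 and 7066 genes of all tested passed, against 6517 without. The median of the members ranged from -0.421 to -0.255 when each sample was left out and was -0.339 after chromosome medians were subtracted. Of 25 called members, 14 passed in all 13 alternatives with a test, and of 21 uncalled members 17 passed in none. In the fits to all samples, changes of sign occurred in uncalled members near 0. Prim2 changed sign with RLE (-0.0027), with DESeq2 (-0.0024) and at a mean of at least 1 CPM (-0.00018). Rfc3 (0.0064), Pola2 (0.007) and Pole2 (0.013) did so with library size only. After chromosome medians were subtracted, the sign also changed in Orc6 (-0.04), Gins2 (-0.16), Gins3 (-0.22), Gins4 (-0.22), Rfc2 (-0.12), Rfc5 (-0.09) and Pole2 (0.03), all uncalled. Over the 13 alternatives with a test, log2 fold changes ranged from -0.1 to 0.064 in Rfc3, -0.096 to 0.087 in Pola2 and -0.134 to 0.17 in Pole2. They ranged from -0.374 to 0.025 in Prim1, -0.039 to 0.068 in Prim2 and -0.04 to 0.217 in Rfc5. The ranges were -0.074 to 0.089 in Rpa1, -0.078 to 0.059 in Rpa3 and -0.018 to 0.245 in Gins3. The cause was not tested. Depth limits the members with the fewest counts, such as Pole2 with 53 in AS set 2.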
